A study of Mus musculus with 12 samples.

Results

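The genes described here encode the major histocompatibility complex (MHC) of the mouse, called H2, and the proteins that load peptides onto it. They were taken from the count table by symbol: every row whose symbol starts with H2-, together with Tap1, Tap2, Tapbp, Psmb8, Psmb9, Psmb10, B2m, Nlrc5, Ciita, Cd74 and Cd1d1. Of 22537 rows, 53 carried such a symbol, and 40 of them had at least 10 counts in at least 3 libraries. The other 13 rows, all H2 class I genes, held at most 4 counts in any library; H2-Q7 and H2-Q9 were at 0 in all of them. Of the 40 genes, 39 entered the test across all genes, and H2-Oa, with at most 10 counts, did not. The libraries are liver poly-A RNA from 12 female C57BL/6 mice aged 6 months, after 13 weeks of high-fat feeding, 3 mice in each of 4 groups. AHR Flox mice carry a floxed Ahr gene and ARNT Flox mice a floxed Arnt gene. AHR KO and ARNT KO are, by their labels, the groups without the respective gene in the liver. AHR Flox and AHR KO together are called the AHR line here, and ARNT Flox and ARNT KO the ARNT line. The recombinase, the exons removed, the breeding of the lines and their H2 haplotypes are not stated in the labels.

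Class I molecules pair a heavy chain with beta-2 microglobulin and show peptides from inside the cell to CD8 T cells and natural killer cells. The peptides are cut by the proteasome, whose inducible subunits form the immunoproteasome, and are pumped into the endoplasmic reticulum by the TAP transporter. Class II molecules are made mainly by dendritic cells, macrophages and B cells and show peptides from taken-up material to CD4 T cells. In liver, hepatocytes carry class I at a modest level, while Kupffer cells, dendritic cells and sinusoidal endothelial cells supply most of the class II.

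Libraries held 23585909 to 33255004 counts in all, and the 40 genes held 0.610% to 1.06% of them. Levels are given in CPM, counts brought to 1 library size with TMM scaling. A count of 0 leaves room for a level of up to 3 counts, or 0.0861 to 0.126 CPM. Log2 differences come from edgeR's quasi-likelihood fit of all 12 libraries, with the standard error (SE), and a gene was called at a Benjamini-Hochberg adjusted p under 0.05 over 13968 genes. ARNT KO replicate 3 stood apart on the first principal component of all genes, at 65.3 against −30.9 to 30.3 for the other libraries, so counts of called genes are also given without it. Arnt fell from 50.2 ± 2.33 to 22.7 ± 3.30 CPM in ARNT KO (SD, n = 3; adjusted p = 0.00601), while Ahr stood at 86.5 ± 7.48 CPM in the libraries labelled AHR KO, no lower than the 68.4 ± 12.9 CPM in AHR Flox. Counts over the whole of Ahr do not check that label if only a part of the gene was removed. The 9 hepatocyte marker genes were abundant in every library and summed to 37005 to 129532 CPM. Alb, the albumin gene, carried most of that range, at 69704 to 89275 CPM in the floxed libraries and 51926 and 53685 in replicates 1 and 2 of ARNT KO, against 5491 to 7089 CPM in AHR KO and 5740 in ARNT KO replicate 3. Apoa1, a lipoprotein gene of hepatocytes, held 6889 to 10751 CPM throughout.

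H2-T10, H2-Ea-ps and H2-Q6 differed between the lines in the same direction in the floxed controls and again in the knockouts, which share no library. H2-T10 and H2-Ea-ps were lower in the ARNT line, and H2-Q6 was higher. H2-Ea-ps reached the count minimum only through the AHR line, so it had to differ in order to enter. It is included in the counts that follow, where its calls are no independent support. Between ARNT Flox and AHR Flox, 4 of 39 genes were called, these 3 and Tap1, the last one higher in ARNT Flox, against 0.329% of all genes tested. Between ARNT KO and AHR KO the call was made for the same 3 of 39, against 0.702% of all genes. Over all genes tested, 0.1% were called in both comparisons in one direction. The groups did not overlap for 30 of the 39 genes in the floxed comparison, against 35.8% of all genes, and for 22 in the knockout comparison, against 24.2%.

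The mean line difference, averaged over floxed and knockout groups, was called for 21 of 39 genes, against 9.72% of all genes tested. Of these, 16 were higher in the ARNT line (5.36% of all genes) and 5 were lower (4.36%). The 16 were Tapbp, Tap1, Psmb9, H2-K1, H2-Q6, H2-Q8, H2-T23, H2-T24, H2-M2, H2-M3, H2-Eb1, H2-Eb2, H2-DMb1, H2-Ob, Cd74 and Ciita, and the 5 were H2-D1, H2-T10, H2-T3, H2-M10.6 and H2-Ea-ps. All 6 libraries of one line lay above all 6 of the other for 13 of the 39 genes, against 3.33% of all genes. Of the 13, 10 were higher (1.55% of all genes) and 3 lower in the ARNT line (1.78%). The median log2 difference of the 39 genes was 0.44 in the floxed comparison and 0.03 in the knockout comparison, where the median of all genes was 0.00 and 0.01. The knockout median was −0.09 without ARNT KO replicate 3, with 17 of the 39 genes positive in place of 20. H2-Eb2 and H2-M2 reached the count minimum only through the ARNT line, and H2-Ea-ps, H2-T3 and H2-M10.6 only through the AHR line, so these 5 had to differ in order to enter. Of the 34 genes with at least 10 counts in some library of each line, the floxed comparison called 3, the knockout comparison 2 and the mean line difference 16, and the lines did not overlap for 9.

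These counts changed with the libraries used. Without ARNT KO replicate 3, 20 of 39 genes were called in the floxed comparison (10.9% of all genes), 3 in the knockout comparison (0.455%), 24 in the mean line difference (8.97%), and the same 3 in both comparisons (0.185%). Residuals of same-numbered floxed libraries correlated at 0.327, 0.153 and 0.101, although the labels pair no samples. With the replicate number as a block the floxed comparison called 0 of the 39 genes, with adjusted p of 0.053 for H2-T10, 0.0756 for H2-Q6, 0.077 for Tap1 and 0.0942 for H2-Ea-ps. The mean line count fell to 11, 5 and 12 without AHR Flox replicates 1, 2 and 3, to 12, 12 and 8 without AHR KO replicates 1, 2 and 3, and to 4 and 3 without ARNT Flox replicates 1 and 2. The counts with the block or without 1 of these libraries are not set beside the share of all genes called. A fit that calls fewer genes in all can lower them. The 3 genes left without ARNT Flox replicate 2 were H2-T10, H2-Q6 and H2-Ea-ps, whose mean line difference was called under all 21 alternatives tried. The other 18 calls were each lost without at least 1 library, ARNT Flox replicate 2 among them, at adjusted p of up to 0.111. The number called in both comparisons was 0 without replicate 1 of AHR Flox or any 1 of the ARNT Flox replicates. It was 1 without replicate 3 of AHR Flox or replicate 2 or 3 of AHR KO, and 2 without replicate 2 of AHR Flox, replicate 1 of AHR KO or replicate 2 of ARNT KO.

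**Figure D1:**
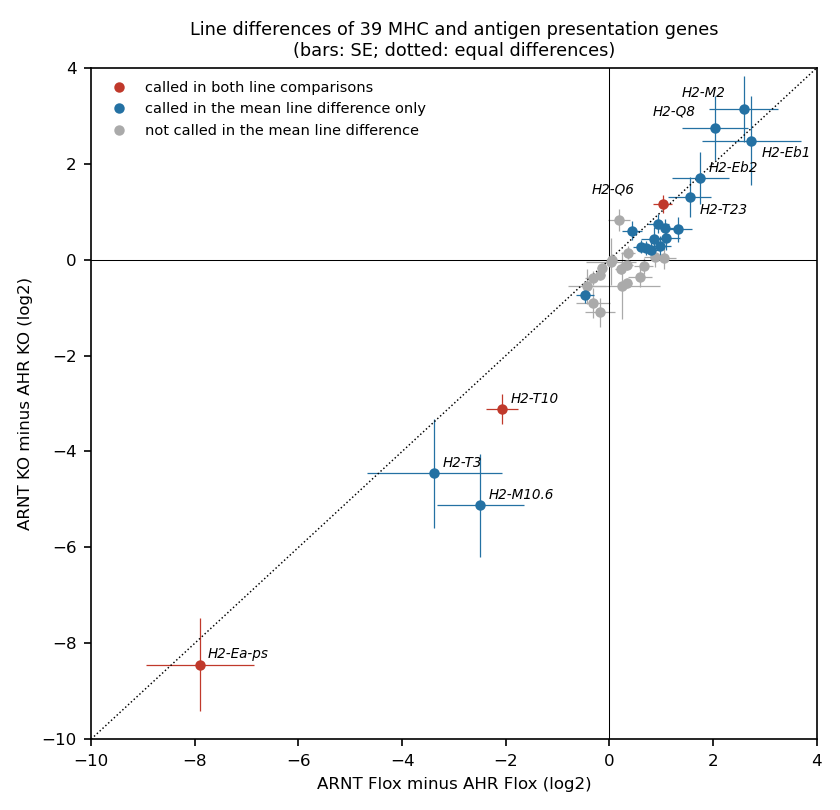
Log2 difference of ARNT Flox minus AHR Flox (x axis) against ARNT KO minus AHR KO (y axis) for the 39 tested genes, with SE bars from the edgeR fit and a dotted line of equal differences. H2-T10, H2-Q6 and H2-Ea-ps (red) were called on both axes, and 18 further genes (blue) in the mean of the axes but not on both; most of the others lie near 0.

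The classical class I heavy chains H2-K1 and H2-D1, which present peptides to CD8 T cells, moved in opposite directions between the lines. H2-K1 (chromosome 17, 33996017 to 34000347, minus strand, GRCm38) held 883, 1487 and 1498 CPM in AHR Flox replicates 1 to 3 and 1447, 1156 and 1139 in the AHR KO livers, against 1595, 1779 and 1860 in ARNT Flox and 1978, 1860 and 1861 in the ARNT KO livers. All 6 ARNT-line libraries lay above all 6 AHR-line libraries, and the mean line difference was 0.52 ± 0.14 (SE, adjusted p = 0.0408). H2-D1 (35262730 to 35267499, plus strand) held 1218, 1034 and 1071 CPM in AHR Flox and 1127, 1458 and 1777 in the AHR KO livers, against 743, 814 and 850 in ARNT Flox and 786, 792 and 1051 in the ARNT KO livers. It was lower in the ARNT line by a log2 difference of −0.60 ± 0.12 (adjusted p = 0.0265), and ARNT KO replicate 3 alone reached into the AHR-line range. Neither gene was called in the floxed or the knockout comparison taken alone, at adjusted p of 0.238 and 0.104 for H2-K1 and 0.192 and 0.0666 for H2-D1. Both mean line calls were lost without replicate 1 or 2 of AHR Flox, replicate 3 of AHR KO or replicate 1 or 2 of ARNT Flox. That of H2-K1 was also lost without any 1 of the other AHR-line libraries, replicate 3 of ARNT Flox or replicate 2 of ARNT KO.

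The ratio of H2-K1 to H2-D1 within a library was 0.641 to 1.44 in the AHR line and 1.77 to 2.52 in the ARNT line, so the 2 ranges did not meet. The ratio was 0.725 in replicate 1 of AHR Flox and 0.793 and 0.641 in replicates 2 and 3 of AHR KO, below the other AHR-line libraries. The same libraries were the lowest for H2-K1 and the highest for H2-D1. The summed level of the 2 genes showed no gap between the lines, which overlapped at 2102 to 2916 CPM in the AHR line and 2338 to 2911 CPM in the ARNT line. Within the AHR line, the 3 AHR Flox libraries, at 2102, 2521 and 2569 CPM, lay below the AHR KO libraries at 2574, 2614 and 2916 CPM. B2m, the light chain shared by all class I molecules (chromosome 2), was level across the groups at 1476 to 1814 CPM, with a mean line difference of 0.03 ± 0.08 (adjusted p = 0.829). Per kilobase of exon, B2m stood highest of the genes at 1887 to 1966 CPM per kb in the group means. H2-K1 followed at 424 to 647, H2-Q10 at 329 to 584 and H2-D1 at 311 to 564 CPM per kb, ranges that overlap one another.

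The 250 bases upstream of the start are shown for H2-K1, H2-Q6 and H2-Eb1, which were all higher in the ARNT line. These are reference sequences. The H2 haplotypes of the mice are not stated, so the mice of either line may carry other sequences and motifs. The class II gene H2-Eb1 carried fewer of the motifs searched than H2-K1 and H2-Q6. Windows of H2-D1, H2-T23 and Tap1 were also searched but are not printed, because annotated untranslated regions lie in them. The sequences are those of RefSeq (GRCm38.p6), printed 5′ to 3′ on the gene's strand and ending at the base before the start, at chr17:34000348-34000597 (minus strand) for H2-K1, chr17:35424600-35424849 (plus strand) for H2-Q6 and chr17:34305617-34305866 (plus strand) for H2-Eb1. Capitals mark matches on either strand to GAANNGAAA, a core that interferon regulatory factors can bind, to GGGNNTTCC, which is part of the NF-kappa-B type site known from class I genes, and to CCAAT, the core bound by nuclear factor Y.
H2-K1: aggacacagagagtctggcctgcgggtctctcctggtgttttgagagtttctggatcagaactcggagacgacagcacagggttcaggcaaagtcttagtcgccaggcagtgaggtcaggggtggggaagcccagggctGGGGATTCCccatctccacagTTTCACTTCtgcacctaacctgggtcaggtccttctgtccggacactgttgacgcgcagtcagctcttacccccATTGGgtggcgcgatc
H2-Q6: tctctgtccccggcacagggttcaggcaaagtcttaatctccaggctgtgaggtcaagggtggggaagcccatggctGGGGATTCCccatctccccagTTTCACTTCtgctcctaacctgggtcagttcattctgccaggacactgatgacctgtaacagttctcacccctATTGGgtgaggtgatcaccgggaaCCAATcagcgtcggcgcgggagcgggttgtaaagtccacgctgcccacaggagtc
H2-Eb1: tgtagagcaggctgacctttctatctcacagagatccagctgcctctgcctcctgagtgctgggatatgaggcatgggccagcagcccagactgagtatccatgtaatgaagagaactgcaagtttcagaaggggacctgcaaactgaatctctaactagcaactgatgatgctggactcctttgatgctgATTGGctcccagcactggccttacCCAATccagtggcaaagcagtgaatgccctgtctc
GGGNNTTCC was present upstream of 7 of the 27 genes with an entry in the promoter table, H2-K1, H2-D1, H2-Q4, H2-Q6, H2-M2, H2-Aa and H2-Oa, against 4.98% of 32851 promoters of the same length. GAANNGAAA was present upstream of H2-K1, H2-D1, H2-Q4, H2-Q6, H2-Q10, H2-M3 and H2-M2, also 7 of 27, against 6.31% of promoters, and CCAAT upstream of 22 of 27, against 33.8%. These counts are of genes, while the percentages are of promoters. A gene with several promoter entries could match in any of them, so the counts are not strictly comparable with the percentages. How far this raised the counts was not tested. The matches do not overlap one another in the sequences shown. H2-Eb1 carried only the CCAAT core of the 3 motifs, as did the windows of H2-T23 and Tap1. The windows of H2-D1, lower in the ARNT line, and H2-Q6, higher there, had 208 identical bases in 253 aligned columns, gaps counted (82.2%). H2-K1 and H2-D1 had 170 in 310 columns (54.8%). The windows end at the annotated starts, and the shared motifs lie nearer the start in H2-K1. GGGGATTCC begins at base −111 in H2-K1 and at −171 in H2-D1. Gaps counted as differences, so the percentages do not rank the pairs by likeness.

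Among the other class I heavy chains, H2-T10 and H2-Q6 had the line differences that held in both comparisons. H2-T10 (chromosome 17, 36115876 to 36121465, minus strand) is annotated as a polymorphic pseudogene and is known as a ligand of some gamma-delta T cell receptors. Its level was 48.0, 33.2 and 26.3 CPM in AHR Flox and 35.3, 76.3 and 77.0 in the AHR KO livers, against 9.59, 8.23 and 7.67 in ARNT Flox and 6.64, 6.26 and 8.90 in the ARNT KO livers. The lowest AHR-line library was thus well above the highest ARNT-line library. Within the AHR line, replicate 1 of AHR Flox and replicates 2 and 3 of AHR KO were the highest libraries. The log2 difference was −2.07 ± 0.30 between the floxed groups (adjusted p = 0.0197) and −3.11 ± 0.31 between the knockouts (adjusted p = 0.000838), with a mean of −2.59 ± 0.22 (adjusted p = 0.000145). The 2 differences were not themselves shown to differ, at −1.04 ± 0.42 (adjusted p = 0.469). The floxed call was lost without replicate 1 of AHR Flox (adjusted p = 0.0802) and without replicates 1, 2 and 3 of ARNT Flox (0.112, 0.132 and 0.0946).

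H2-Q6 (chromosome 17, 35424850 to 35430055, plus strand) is a gene of the Q series, which encodes non-classical class I chains. It held 13.4, 23.2 and 16.98 CPM in AHR Flox and 19.5, 15.4 and 12.9 in the AHR KO livers, against 34.9, 39.01 and 35.5 in ARNT Flox and 36.8, 33.7 and 36.2 in the ARNT KO livers. Every ARNT-line library was above every AHR-line library, and the 2 groups of each line overlapped. Replicate 1 of AHR Flox and replicates 2 and 3 of AHR KO were the lowest libraries. The log2 difference was 1.03 ± 0.18 in the floxed comparison (adjusted p = 0.0463), 1.16 ± 0.19 in the knockouts (adjusted p = 0.0207) and 1.10 ± 0.13 in the mean (adjusted p = 0.00276). Its call between the floxed groups was lost without replicate 1 or 3 of AHR Flox, replicate 2 of AHR KO or of ARNT KO, or any 1 of the ARNT Flox replicates, at adjusted p of up to 0.202. That between the knockouts was lost without replicate 2 or 3 of AHR KO (adjusted p = 0.0625 and 0.106).

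H2-T23, whose product displays leader peptides to an inhibitory receptor of natural killer cells, held 57.8, 199 and 164 CPM in AHR Flox and 236, 96.4 and 98.5 in the AHR KO livers, against 404, 405 and 420 in ARNT Flox and 322, 325 and 419 in the ARNT KO livers. H2-Q8 held 0.579, 4.34 and 2.98 CPM in AHR Flox and 3.16, 0.615 and 0.470 in the AHR KO livers, against 11.4, 11.6 and 9.47 in ARNT Flox and 10.4, 9.28 and 8.87 in the ARNT KO livers. In both genes the lines did not overlap, and replicate 1 of AHR Flox and replicates 2 and 3 of AHR KO were the lowest libraries. The mean line difference was 1.43 ± 0.30 for H2-T23 (adjusted p = 0.0266) and 2.40 ± 0.46 for H2-Q8 (adjusted p = 0.0232). Each was called in neither comparison alone, and both mean calls were lost without replicate 2 of AHR Flox or replicate 1 or 2 of ARNT Flox, that of H2-T23 also without replicate 2 or 3 of AHR KO. H2-T24 was higher in the ARNT line as well, at 6.67 to 11.998 against 4.65 to 5.47 CPM (0.85 ± 0.14, adjusted p = 0.019).

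H2-M3, which presents formylated peptides of bacteria and mitochondria, was higher by 0.50 ± 0.13 (adjusted p = 0.0388), with the lines overlapping. H2-M2 lay at 0.248 to 1.12 CPM in the ARNT line and at 0.0314 to 0.195 CPM in the AHR line, where it held fewer than 10 counts in every library. H2-T3 and H2-M10.6 were at or below 0.777 CPM in every library, so their levels are at the limit of what this depth resolves. H2-Q10, a secreted class I chain made in liver, was abundant at 1069 to 2813 CPM and was not called in any comparison (mean line difference 0.51 ± 0.16, adjusted p = 0.0594). H2-Q1, H2-Q2, H2-Q4 and H2-Bl and the pseudogene H2-K2 were not called either, with mean line differences from −0.64 to 0.12. Within groups, H2-Q1 and H2-K2 varied most in AHR KO, at 26.6, 108 and 32.8 CPM and at 19.6, 61.4 and 26.7 CPM.

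**Figure D2:**
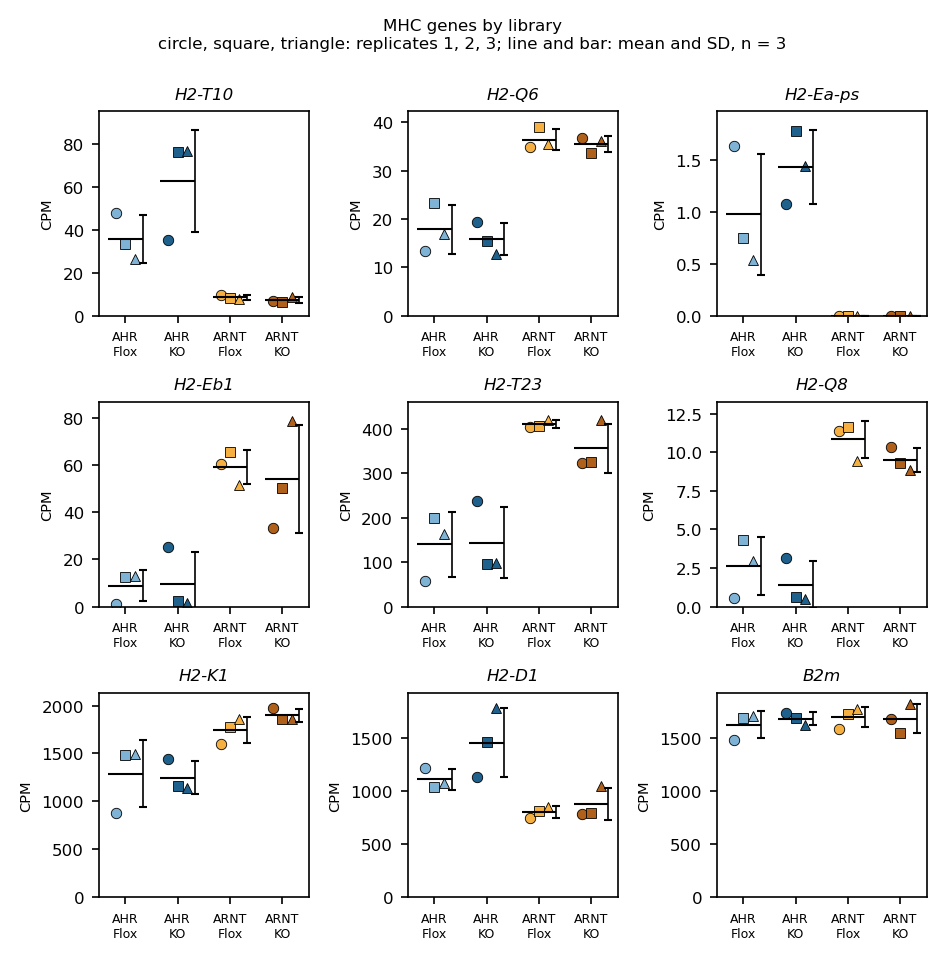
CPM of 9 genes in each library (y axes from 0) by group, with the mean and SD over 3 libraries; SD bars that would pass below 0 are cut at the axis. H2-T10 and H2-Ea-ps are low or 0 and H2-Q6, H2-Eb1, H2-T23, H2-Q8 and H2-K1 high in all 6 ARNT-line libraries, while B2m stays at 1476 to 1814 CPM.

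Class I and class II copies share sequence, and the counting tool, its strand setting and its annotation are not stated in the labels, so reads could be split between copies. Of all 50-base words in the exons of a gene, the share found in no other GENCODE gene had a median of 98.4% over the 39 genes with an annotation entry. It was 67.1% for H2-T10, which shares most with H2-T22, 68.0% for H2-Q6, which shares most with H2-Q7, 87.2% for H2-D1 and 90.4% for H2-K1. H2-T22 held at most 2 counts in any library and H2-Q7 held 0. H2-Q8 has no entry in the annotation used here, so this share was not computed for it. Words that H2-Q6 shares with H2-Q8 could not be seen either. The 68.0% of H2-Q6 can therefore be too high, and H2-Q7 shares most with it only among annotated genes. Levels of these heavy chain genes are uncertain to that extent, and whether reads from alleles that differ from the reference were assigned differently was not tested.

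Of the genes that supply peptide to class I, Tap1 and Tapbp were higher in the ARNT line and Tap2 was not called. Tap1, one subunit of the peptide transporter (chromosome 17, 34187553 to 34197225, plus strand), held 34.2, 41.2 and 31.0 CPM in AHR Flox and 46.4, 37.4 and 27.3 in the AHR KO livers, against 76.9, 81.5 and 65.7 in ARNT Flox and 48.9, 56.0 and 70.6 in the ARNT KO livers. The lines did not overlap, although ARNT KO replicate 1 came close to AHR KO replicate 1. The log2 difference was 1.07 ± 0.19 in the floxed comparison (adjusted p = 0.0463), 0.66 ± 0.19 in the knockouts (adjusted p = 0.0924) and 0.87 ± 0.14 in the mean (adjusted p = 0.0152). The call between the floxed groups was lost without any 1 of their 6 libraries or replicate 2 of either knockout, at adjusted p of up to 0.202. The mean call was lost without replicate 1 or 2 of ARNT Flox, at adjusted p of 0.0509 and 0.0501. Tap2, the partner subunit, held 51.2 to 77.8 CPM with a mean line difference of 0.02 ± 0.08 (adjusted p = 0.904). Tapbp, or tapasin, which bridges the transporter and the empty class I molecule, lay at 94.8 to 122 CPM in the AHR line and 123 to 188 CPM in the ARNT line (0.44 ± 0.10, adjusted p = 0.033).

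The immunoproteasome subunits Psmb8, Psmb9 and Psmb10 did not follow 1 pattern. Psmb9 held 27.6, 34.1 and 28.9 CPM in AHR Flox and 35.4, 36.0 and 34.2 in the AHR KO livers, against 46.6, 52.3 and 49.9 in ARNT Flox and 32.4, 41.3 and 52.2 in the ARNT KO livers, and was higher in the ARNT line by 0.48 ± 0.10 (adjusted p = 0.0276). Replicate 1 of ARNT KO lay inside the AHR-line range, and the calls of Psmb9 and Tapbp were both lost without any 1 of the AHR Flox libraries, replicate 1 or 3 of AHR KO or replicate 1 or 2 of ARNT Flox. Psmb8 and Psmb10 were not called in the mean line difference (0.27 ± 0.12, adjusted p = 0.156, and −0.08 ± 0.07, adjusted p = 0.471). Psmb10 stood at 0.33 ± 0.10 between the floxed groups and at −0.49 ± 0.10 between the knockouts, neither of them called (adjusted p = 0.149 and 0.0561).

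Among the class II genes, 1 was read in only 1 line and its partner chain was far higher in the other line. H2-Ea-ps, the E-alpha chain gene (chromosome 17, 34341959 to 34344645, minus strand), is annotated as a polymorphic pseudogene, since the allele of the C57BL/6 reference genome makes no E-alpha chain while some other mouse strains express it. It held 48, 22 and 13 counts in AHR Flox, and the AHR KO libraries held 33, 55 and 46. All 6 ARNT-line libraries held 0. Replicate 1 of AHR Flox and replicates 2 and 3 of AHR KO held the most. Against a limit of 3 counts per library, the mean was at least 9.47-fold higher in AHR Flox (0.975 ± 0.581 CPM, SD, n = 3) than in ARNT Flox, and at least 15.6-fold higher in AHR KO (1.43 ± 0.353 CPM) than in ARNT KO. It was called in the floxed comparison (adjusted p = 0.0403), in the knockouts (0.0197) and in the mean (0.00431). These calls are no independent support for a line difference, since the gene passed the count minimum only through the AHR line. The call between the floxed groups was lost without any 1 library outside ARNT KO, at adjusted p of up to 0.154, and the call between the knockouts without replicate 3 of AHR KO (0.0881). All 50-base words of its exons were found in no other annotated gene.

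H2-Eb1, the E-beta chain that pairs with E-alpha (chromosome 17, 34305867 to 34316674, plus strand), showed the reverse order. It held 1.26, 12.5 and 13.0 CPM in AHR Flox and 25.4, 2.17 and 1.47 in the AHR KO livers, against 60.6, 65.5 and 51.4 in ARNT Flox and 33.4, 50.3 and 78.7 in the ARNT KO livers. Every ARNT-line library was higher than every AHR-line library, and replicate 1 of AHR Flox and replicates 2 and 3 of AHR KO again had the lowest values. The mean line difference was 2.61 ± 0.67 (adjusted p = 0.0393), with neither comparison called alone (adjusted p = 0.173 and 0.143). The mean call was lost without any 1 of the 6 floxed libraries or replicate 2 or 3 of AHR KO, at adjusted p of up to 0.0927.

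As a share of the A-beta chain gene H2-Ab1 in the same library, H2-Eb1 made 85.1% to 96.2% in the ARNT line. In the AHR line it made 3.45%, 42.1% and 51.3% in the floxed livers and 40.9%, 3.68% and 2.92% in the knockouts. Libraries of both AHR-line groups were thus found at both ends of this range. The A chains themselves, H2-Aa and H2-Ab1, were not called in the mean line difference (0.12 ± 0.16, adjusted p = 0.629, and 0.54 ± 0.16, adjusted p = 0.0525). H2-Eb2, a neighbour of H2-Eb1 with at most 21 counts, was higher in the ARNT line, at 0.248 to 0.625 against 0.0314 to 0.194 CPM.

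Among the genes for class II loading, Cd74, the invariant chain that guards the class II groove, held 93.8, 81.0 and 78.0 CPM in AHR Flox and 129, 127 and 129 in the AHR KO livers, against 161, 193 and 145 in ARNT Flox and 106, 141 and 219 in the ARNT KO livers. Its mean line difference was 0.63 ± 0.15 (adjusted p = 0.0346), with the ARNT KO libraries lying on both sides of the AHR KO and ARNT Flox libraries. H2-DMb1, a chain of the peptide exchange factor DM, rose by 0.98 ± 0.19 (adjusted p = 0.0232), and H2-Ob, a chain of its inhibitor, by 0.65 ± 0.17 (adjusted p = 0.0436), both with overlapping lines. H2-DMa and H2-DMb2 were not called (adjusted p = 0.0603 and 0.0921). Ciita, the coactivator that switches on class II genes, lay at 2.83, 2.05 and 1.37 CPM in AHR Flox and 2.83, 2.33 and 2.76 in the AHR KO livers, against 5.06, 4.76 and 3.56 in ARNT Flox and 2.64, 4.04 and 4.22 in the ARNT KO livers (0.78 ± 0.19, adjusted p = 0.0351). ARNT KO replicate 1 was the only ARNT-line library inside the AHR-line range. The calls of Cd74, Ciita, H2-DMb1 and H2-Ob were all lost without replicate 2 of AHR Flox, replicate 3 of AHR KO or replicate 1 or 2 of ARNT Flox. Nlrc5, the related coactivator of class I genes, held 31.2 to 52.7 CPM and was not called (0.25 ± 0.10, adjusted p = 0.106).

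Summed markers of other cell types are given beside these genes, since in bulk liver RNA fewer cells of a type and less RNA per cell cannot be told apart. The summed level of the 9 dendritic cell markers was 13.9 to 14.7 CPM in AHR Flox and 17.7 to 18.5 in the AHR KO livers, against 21.5 to 25.3 in ARNT Flox and 16.4 to 28.2 in the ARNT KO livers. The 12 macrophage and Kupffer cell markers summed to 422 to 652, 446 to 541, 658 to 683 and 533 to 886 CPM in the same order, and the 8 B cell markers in the table to 6.05 to 8.14, 5.27 to 7.64, 7.42 to 10.96 and 7.87 to 10.4 CPM. The 5 class II chains summed to 79.4 ± 8.43 CPM in AHR Flox and 136 ± 17.4 in the AHR KO livers, against 181 ± 22.9 in ARNT Flox and 166 ± 63.6 in the ARNT KO livers (SD, n = 3). In the same order, the 8 sinusoidal endothelial markers summed to 266 to 311, 235 to 302, 312 to 370 and 312 to 342 CPM. The 11 T and NK cell markers in the table summed to 4.76 to 8.68, 10.3 to 12.8, 10.3 to 14.6 and 8.91 to 13.98 CPM. No marker of these 5 lists was called in either line comparison by edgeR. At an unadjusted p under 0.05 the floxed comparison had 6 of 9 dendritic cell, 7 of 12 macrophage and Kupffer cell, 3 of 8 B cell, 2 of 8 endothelial and 7 of 11 T and NK cell markers, against 19.9% of all genes. The knockout comparison had 1, 6, 3, 4 and 1 in that order, against 24.6%. With ARNT KO replicate 3 left out, 2 dendritic cell, 6 macrophage and Kupffer cell and 4 T and NK cell markers were called higher in ARNT Flox and none of the others, against 10.9% of all genes. The mean line difference was called for 1 of 9 dendritic cell, 6 of 12 macrophage and Kupffer cell, 3 of 8 B cell, 2 of 8 sinusoidal endothelial and 0 of 11 T and NK cell markers, all of them higher in the ARNT line. Of all genes, 9.72% were called in this contrast, 5.36% as higher. The dendritic cell share, 11.1%, was near the share of all genes called. Markers of other liver cells were higher in the ARNT line too. All 7 stellate cell markers had a positive mean line difference, with 1 called, and 0 called without ARNT KO replicate 3. All 5 cholangiocyte markers were positive, with 0 called, and 3 were positive without that library. None of these markers was at 0 throughout a group, and their part in the class II values was not tested.

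Cd1d1, which presents lipids to natural killer T cells (chromosome 3), held 317 to 411 CPM in the AHR line and 218 to 339 in the ARNT line, a difference that was not called (−0.35 ± 0.10, adjusted p = 0.0521). The neighbouring gene Cd1d2, which is not among the 40 genes, held 0.248 to 0.564 CPM in the AHR line and 20.5 to 27.1 CPM in the ARNT line. Its log2 difference was 6.12 between the floxed groups (adjusted p = 1.29e-07) and 5.79 between the knockouts (adjusted p = 1.27e-07). Cd1d2 lies 8.44 Mb from Arnt on the same chromosome, and Cd1d1 lies 8.43 Mb from it. H2-Ke6 and H2-Ke2, a steroid dehydrogenase and a prefoldin gene that share only the location and the H2 symbol, were not called (−0.25 ± 0.07, adjusted p = 0.0517, and −0.16 ± 0.06, adjusted p = 0.102). For H2-Ke6, 29.5% of 50-base words were unique, since its exons are shared with the read-through gene Gm20427.

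The knockout comparisons within each line called none of these genes. In AHR KO against AHR Flox, edgeR called 0 of 39 (0.0788% of all genes), with 10 at an unadjusted p under 0.05 against 11.9% of all genes. DESeq2 called 4, limma-voom 0 and limma-voom with quality weights 2, counts that are not set beside the share of all genes each method called. The groups did not overlap for 11 of the 39 genes, against 21.2% of all genes, and all 11 were higher in AHR KO, against 11.7%. Psmb10 came closest, at 48.4, 61.3 and 45.3 CPM in AHR Flox and 77.2, 80.1 and 82.1 in AHR KO (0.63 ± 0.10, adjusted p = 0.0529). Psmb8 held 46.2, 50.04 and 40.4 CPM against 62.5, 71.4 and 73.1 (0.60 ± 0.18, adjusted p = 0.19). The 2 groups did not overlap in either of these subunits. Psmb9 did not overlap either, but narrowly, at 34.07 CPM in the highest AHR Flox library and 34.24 in the lowest AHR KO library.

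H2-Ab1 held 36.6, 29.7 and 25.3 CPM in AHR Flox and 62.0, 58.9 and 50.5 in AHR KO (0.90 ± 0.23, adjusted p = 0.141). H2-Aa held 48.5, 35.9 and 32.3 against 65.2, 72.6 and 65.4 CPM (0.80 ± 0.23, adjusted p = 0.177), and H2-DMa 3.88, 4.34 and 3.15 against 6.99, 6.60 and 6.18 CPM (0.79 ± 0.21, adjusted p = 0.15). In all 3 class II genes the AHR KO libraries lay above the AHR Flox libraries. The summed dendritic cell markers did so too, although none of the 9 had an unadjusted p under 0.05, and so did the summed T and NK cell markers, with 6 of 11 under 0.05. The macrophage, B cell and endothelial sums overlapped between the 2 groups, with median log2 differences of −0.01, −0.31 and −0.11. No marker of these lists was called, and their part in the class II values was not tested. Without ARNT KO replicate 3, which is in neither group but enters the shared estimate of the spread, 4 genes were called higher in AHR KO, against 0.59% of all genes. These were Psmb8 (0.59, adjusted p = 0.017), Psmb10 (0.62, 0.0283), H2-Ab1 (0.90, 0.0315) and H2-Aa (0.79, 0.0451). Without AHR Flox replicate 2 the number called was 1.

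In ARNT KO against ARNT Flox, edgeR called 0 of 39 genes (0.0573% of all genes), with 0 at an unadjusted p under 0.05 against 5.88% of all genes. DESeq2 and limma-voom called 0 as well, and limma-voom with quality weights called 1. The groups did not overlap for 4 of the 39 genes, against 10.8% of all genes. Without ARNT KO replicate 3, which leaves 2 libraries in that group, 12 genes had an unadjusted p under 0.05, against 16.4% of all genes. The groups then did not overlap for 24 genes, against 37.5% of all genes in either direction. Of the 24, 19 were lower in ARNT KO, and over the 13968 genes 2557 were lower without overlap. ARNT KO replicate 3 often lay on the other side of ARNT Flox from its group mates: Psmb8 held 51.9, 51.2 and 86.3 CPM in ARNT KO against 72.3, 75.2 and 68.4 in ARNT Flox, and H2-Aa held 36.8, 48.5 and 74.1 against 57.6, 67.5 and 50.1 CPM. Without that library Psmb8 was called lower (−0.48, adjusted p = 0.0454), the only one of the 39 genes, against 1% of all genes called lower. The log2 difference of H2-Ab1 was then −0.45 (adjusted p = 0.231) and that of Tap1 −0.51 (adjusted p = 0.227).

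The change of the line difference between floxed and knockout groups, which equals the difference between the knockout effects, was called for 0 of 39 genes (0.043% of all genes). At an unadjusted p under 0.05 there were 11, against 9.51% of all genes, and DESeq2 called 1 and limma-voom with quality weights 5. Psmb10 had the smallest p (−0.82 ± 0.15, adjusted p = 0.127), followed by H2-Ab1 (−1.03 ± 0.32, adjusted p = 0.335) and Psmb8 (−0.79 ± 0.25, adjusted p = 0.346). Without ARNT KO replicate 3 the change was called for 6 genes, all negative, against 1% of all genes. They were Psmb8 (−1.07, adjusted p = 0.00406), H2-Ab1 (−1.34, 0.0233), Cd74 (−1.02, 0.0303), H2-Aa and Psmb10 (−1.25 and −0.81, both 0.035) and Tapbp (−0.55, 0.0368). In that fit the line difference of these 6 genes was thus not the same in floxed and knockout groups. Without AHR Flox replicate 2 the number called was 1.

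**Figure D3:**
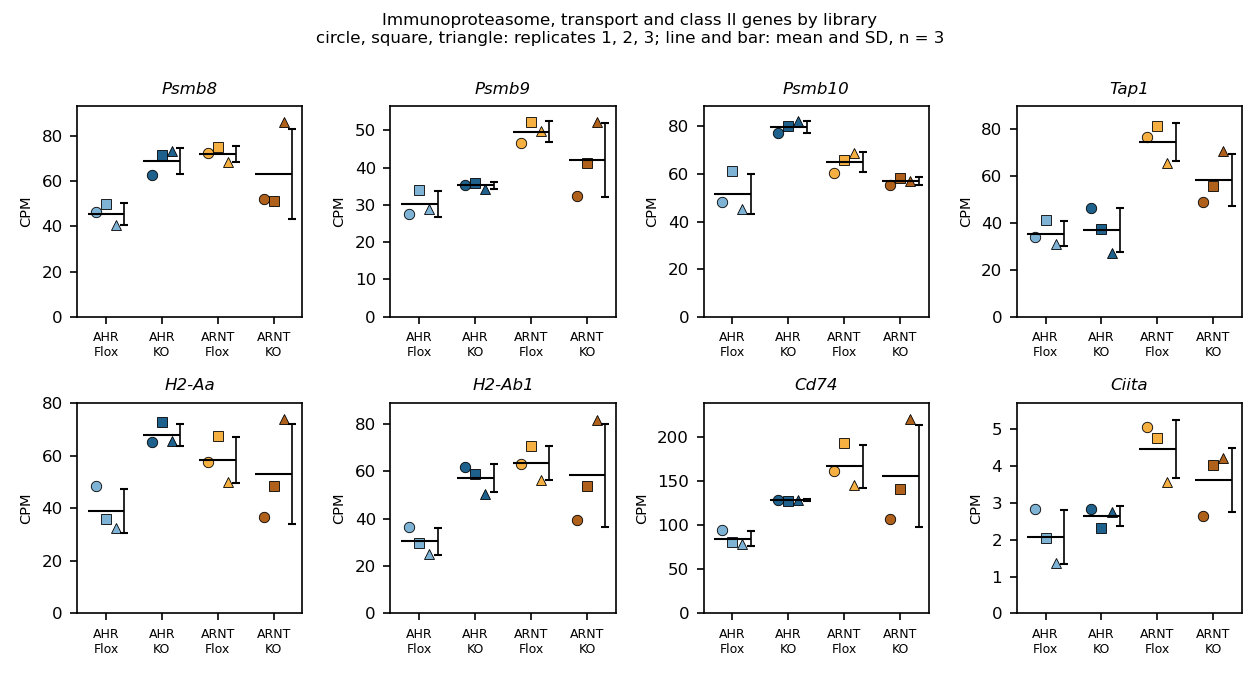
CPM of the 3 immunoproteasome subunits, Tap1, H2-Aa, H2-Ab1, Cd74 and Ciita in each library (y axes from 0) by group, with the mean and SD over 3 libraries. AHR KO lies above AHR Flox in Psmb8, Psmb10, H2-Aa, H2-Ab1 and Cd74, and narrowly in Psmb9. The triangle of ARNT KO (replicate 3) lies above its group mates in all of the plots except Psmb10.

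Of the 39 annotated genes, 33 lie on chromosome 17. Among the other 91 tested genes between H2-Ke2 and H2-M2 on chromosome 17 (33938821 to 37483552, GRCm38), the mean line difference was called for 23, or 25.3%, 6 higher and 17 lower in the ARNT line. Elsewhere on chromosome 17 it was called for 10.7% of 521 genes, and on the other chromosomes for 9.57% of 12011 genes. Of the 91 neighbours, 3 were called in both the floxed and the knockout comparison, Gm8801, 2410017I17Rik and Gm8909, all lower in the ARNT line; they are named after their values were seen. Gm8909 and 2410017I17Rik lie between H2-T10 and H2-T3. Higher and lower genes stood side by side: H2-Eb1 and H2-Eb2 were higher and H2-Ea-ps, the next gene, was lower. H2-T23 was higher and H2-T10 lower, with the uncalled genes Gm6034 and H2-Bl between them.

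**Figure D4:**
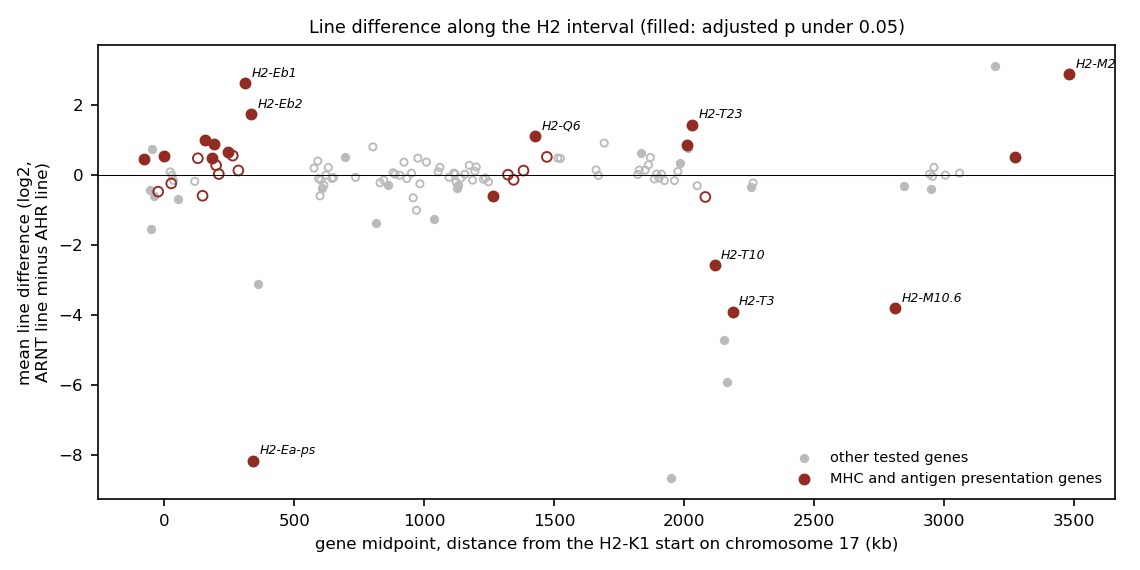
Mean line difference (y axis, log2, ARNT line minus AHR line) of tested genes against the distance of the gene midpoint from the H2-K1 start on chromosome 17 (x axis, kb); filled points were called, open points were not, and dark red points are the genes described here. Genes higher and lower in the ARNT line lie side by side, with H2-Eb1 (2.61) and H2-Ea-ps (−8.18, a fitted value for a gene at 0 in 1 line) at the left.

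Other genes of antigen processing, which are not among the 40, were counted in the same fit. Of 32 tested genes of the constitutive proteasome, its activator, chaperones, proteases and class II transcription factors, 2 were called in each line comparison (against 0.329% of all genes in the floxed and 0.702% in the knockout comparison). The mean line difference was called for 7 of the 32, or 21.9% against 9.72% of all genes, 2 higher and 5 lower. The floxed comparison called 11 of the 32 without ARNT KO replicate 3, against 10.9% of all genes. Cd1d2 was one of the 2 in both comparisons. The others were Calr, the chaperone calreticulin that takes part in class I loading (−1.25 ± 0.19 between the floxed groups, adjusted p = 0.0273), and Rfxap, a subunit of the factor that binds class II promoters (−0.59 ± 0.10 between the knockouts, adjusted p = 0.0329). Calr held 664, 512 and 659 CPM in AHR Flox and 268, 258 and 247 in ARNT Flox. Among the knockouts it overlapped, at 594, 575 and 752 CPM in AHR KO and 612, 433 and 355 in ARNT KO, and was not called (−0.46 ± 0.19, adjusted p = 0.17). Of 21 tested genes of interferon-gamma signalling and its targets, the mean line difference was called for 9, all higher in the ARNT line (42.9% against 5.36% of all genes), and the floxed comparison for Gbp2 (2.29-fold, adjusted p = 0.0417) and Gbp7 (1.83-fold, adjusted p = 0.045). It called 11 of the 21 without ARNT KO replicate 3, all higher, against 10.9% of all genes in either direction. Between the knockouts edgeR called 0 of the 21, with 5 at an unadjusted p under 0.05 (23.8% against 24.6% of all genes).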

How the data were processed

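Liver poly-A RNA was sequenced from 12 mice, 1 library each. The deposited table holds the authors' raw counts per gene symbol, with no normalization. The submitters' processing notes list the mm10 build, STAR (versions 2.5.4b and 2.6.0c), DESeq2 1.20.0, bcl2fastq 2.20 and R 3.5.1. The counting tool is not given in the sources used here.

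Counts were fitted with edgeR 4.0.16 in R 4.3.3: filterByExpr defaults (minimum count 10, minimum total 15), TMM scaling, 1 mean per group, quasi-likelihood F test (two-sided) and Benjamini-Hochberg adjustment over 13968 genes. Rows that failed the filter were not tested. CPM are TMM-scaled. The members, role lists, marker lists and tests were chosen with earlier results of these data known. Any member could be named; values in every library are given for members called in both line comparisons, those with the smallest p per comparison and a list of central genes, and others, such as H2-T23 and H2-Q8, were chosen after their values were seen.

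Replicates of a group were not duplicates (chi-square per degree of freedom at least 16.96). The labels pair no samples, but residuals of same-numbered floxed libraries correlated at 0.327, 0.153 and 0.101, so the blocked result is given for that comparison. Every pair of groups was looked at, and only this pair had each correlation over 0.1, a cut that 0.101 barely passes. Gene positions are from GENCODE M21 (GRCm38, the build of mm10) and upstream sequences from RefSeq. Tested on simulated data of 13852 genes, the fit recovered 79% of 2-fold and 99% of 4-fold changes between the floxed groups, with 8 false calls, and 91% and 100% in the mean line difference, with 13. Changes were planted only in the more abundant genes. Libraries were drawn independently around a common mean, with no deviant library and no tie between replicates. These rates therefore need not hold for the real libraries, where H2-Q8 (4.13-fold) and H2-Eb1 (6.69-fold) were not called between the floxed groups. The alternatives were DESeq2 1.42.0, its size factors, TMM leaving out the top 50 genes, upper quartile scaling, other count filters, limma-voom (limma 3.58.1) with and without quality weights, only the groups compared, the replicate block, and each library left out. Limits set from counts hold for counting error alone, because the labels name no molecular identifiers and reads can be PCR copies.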

Additional observations from a re-analysis of the deposited data

How the results depend on the processing

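With 3 mice a group, the number of genes called moved with the test and the libraries, while no direction of a called gene reversed. DESeq2 called 16 of 39 genes between the floxed groups, 15 between the knockouts, 7 in both, 4 in AHR KO and 1 for the change of the line difference. Limma-voom with quality weights called 26, 9, 7, 2 and 5 in the same order, and 1 in ARNT KO. Limma-voom without weights called 2 between the floxed groups. Fitting only the groups compared gave 23 between the floxed groups, 0 between the knockouts and therefore 0 in both. With the replicate number as a block there were 0 between the floxed groups and 0 in both, 3 between the knockouts, 20 in the mean line difference, and no call changed in the other comparisons of gene numbers. Without a count filter AHR KO had 1 call. Leaving out 1 library at a time gave 0 to 20 calls between the floxed groups, 1 to 8 between the knockouts, 0 to 4 in both, 3 to 25 in the mean line difference, 0 to 4 in AHR KO, 0 to 1 in ARNT KO and 0 to 6 for the change of the line difference. Genes whose 6 ARNT-line libraries lay apart from the 6 AHR-line libraries numbered 13 to 18. The knockout comparison had 5 calls without replicate 1 of AHR KO, 1 without replicate 3 of AHR KO, 2 without replicate 2 of AHR KO and 8 without replicate 1 of ARNT KO. The floxed comparison had 0 without replicate 1 of AHR Flox or any 1 of ARNT Flox, 1 without replicate 3 of AHR Flox or 2 of AHR KO, 2 without replicate 2 of AHR Flox or of ARNT KO, and 8 without replicate 1 of ARNT KO. Except where a share is printed, the counts under the alternatives, here and above, are not set beside the share of all genes called. A setting that calls more genes in all can raise them. Why the counts moved was not tested. Other scalings shifted the median gene by at most 0.035 on the log2 scale and changed none of these counts. Of 595 values of single genes under the alternatives, 444 stayed on their side of the threshold, 151 lost the call and 0 reversed. Depth limits H2-T3, H2-M10.6, H2-M2, H2-Eb2 and H2-Oa, which hold few counts.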
